A study of Mus musculus with 48 samples.

Results

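The adhesion G protein-coupled receptor (GPCR) genes Adgrg1, Adgrl4, Adgre1, Adgre4, Adgre5 and Adgrg3 were followed through 24 clonal cultures of mouse bone marrow ER-Hoxb8 cells, each sequenced once as monocytic cells (monocyte, n = 24) and once as granulocyte-monocyte progenitors (progenitor, n = 24). ER-Hoxb8 cells are myeloid progenitors kept immature and dividing by a Hoxb8 protein fused to the hormone-binding part of the estrogen receptor; all 48 libraries come from such cells, and the labels name stem cell factor (SCF) in the growth medium. The 6 genes were taken by symbol from a table of 34617 genes and are part of a family list of 30 adhesion GPCR genes, all of which were in the table. They were chosen by a rule that used their measured TPM, with the difference between the states already known, so the state values are a description and carry no test. Clones were numbered 1 to 13, 15 to 24 and 26, and the 2 libraries of a clone were matched by that number. Values are TPM, transcript abundances corrected for length and scaled to a library's total. Read numbers cannot be recovered from them, and the depth behind each value is unknown.

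Adhesion GPCRs carry a long extracellular part that is usually cut from the membrane-spanning part at a site next to the membrane, after which both pieces stay associated; pulling the outer piece away exposes a tethered agonist that can switch the receptor on. They bind matrix proteins and molecules on neighbouring cells. Of the genes followed here, Adgrg1 (GPR56) is known from stem and progenitor cells, Adgrl4 (ELTD1) from endothelium, Adgre1 (F4/80) and Adgre4 (EMR4) from mouse macrophages and monocytes, Adgre5 (CD97) from leukocytes in general, and Adgrg3 (GPR97) from granulocytes.

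Gene positions and promoter sequences are shown first for Adgrg1 and Adgrl4, because their transcripts moved together across clones, and for Adgrg3, because it is the next gene after Adgrg1 on the same strand. In GENCODE M21 on GRCm38 (mm10), Adgrg1 lies at chr8:94974751-95014217 on the plus strand and Adgrg3 at chr8:95017692-95045250 on the plus strand, with 3474 bases between them. Adgrg5 lies 31470 bases before Adgrg1 and averaged 0.0153 TPM in monocytes and 0.0119 TPM in progenitors. Adgre5 lies at chr8:83723251-83741326 on the minus strand, Adgrl4 at chr3:151437887-151545086, Adgre4 at chr17:55749984-55853662 and Adgre1 at chr17:57358691-57483527, the last 3 on the plus strand. RefSeq promoter windows on GRCm38.p6, each of 250 bases ending just before a start in RefSeq, were matched for 4 of the 6 genes: 2 windows for Adgrg1 and 1 each for Adgrl4, Adgre4 and Adgrg3. Distances to a start are counted from that RefSeq start. Both Adgrg1 windows lie inside the GENCODE span of the gene given above, downstream of its first base. They were searched on both strands for GAGGAA (the core bound by PU.1), GATAA (GATA factors), TGTGGT (RUNX factors), TTGCNNAA (C/EBP factors) and TGANTCA (AP-1), and matches are in capitals. The windows printed are chr8:94976859-94977108 and chr8:94984149-94984398 for Adgrg1, chr3:151437632-151437881 for Adgrl4 and chr8:95017442-95017691 for Adgrg3, all on the plus strand.
Adgrg1 window 1: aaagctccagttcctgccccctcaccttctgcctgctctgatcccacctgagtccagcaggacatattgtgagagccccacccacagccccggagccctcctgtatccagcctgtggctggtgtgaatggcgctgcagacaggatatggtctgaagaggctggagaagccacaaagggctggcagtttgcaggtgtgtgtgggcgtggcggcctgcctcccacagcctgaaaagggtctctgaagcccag
Adgrg1 window 2: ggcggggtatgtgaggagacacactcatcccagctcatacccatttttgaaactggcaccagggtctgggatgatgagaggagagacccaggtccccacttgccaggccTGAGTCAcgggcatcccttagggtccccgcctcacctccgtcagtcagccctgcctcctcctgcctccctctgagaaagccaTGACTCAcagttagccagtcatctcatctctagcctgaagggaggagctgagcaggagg
Adgrl4: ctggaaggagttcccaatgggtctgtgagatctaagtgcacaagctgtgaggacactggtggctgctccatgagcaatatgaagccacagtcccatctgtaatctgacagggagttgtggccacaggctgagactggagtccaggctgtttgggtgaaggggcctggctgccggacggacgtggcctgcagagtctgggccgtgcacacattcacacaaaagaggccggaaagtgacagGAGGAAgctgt
Adgrg3: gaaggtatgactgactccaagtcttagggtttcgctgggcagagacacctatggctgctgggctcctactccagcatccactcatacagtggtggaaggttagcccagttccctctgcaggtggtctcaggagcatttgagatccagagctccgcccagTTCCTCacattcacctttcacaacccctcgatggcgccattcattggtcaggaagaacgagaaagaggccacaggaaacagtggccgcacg

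The second Adgrg1 window held 2 AP-1 matches, TGAGTCA beginning 141 bases and TGACTCA beginning 59 bases before the start, and the first window held none of the 5 motifs. Of 32817 promoter windows in the table, 6.75% held an AP-1 match. Adgrl4 held GAGGAA 11 bases before its start and Adgrg3 held its reverse complement 91 bases before its start, a motif found in 23.3% of windows. The Adgre4 window held 1 C/EBP match 46 bases before the start, as did 9.57% of windows. None of the 5 windows held a GATA match (22.6% of all windows did) or a RUNX match (14.0% did), and no matches overlapped. These are matches of letters and not measured binding sites.

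Across the libraries, 9436 to 10717 genes reached 1 TPM in monocytes and 8240 to 11030 in progenitors, and the mitochondrial share of TPM ranged over 1.98 to 25.1% in monocytes and 3.44 to 16.7% in progenitors. All 5 progenitor markers checked (Cd34, Kit, Flt3, Myb, Meis1) fell in monocytes and all 8 monocyte and macrophage markers rose (limma, adjusted over all genes). All 12 neutrophil markers rose as well, and their summed level was 427 to 188900 TPM in monocytes against 11.3 to 10990 TPM in progenitors, so the monocyte libraries also held abundant neutrophil transcripts. Eosinophil markers, of which the 3 tested rose, had a median sum of 119 TPM in monocytes and 1.47 TPM in progenitors. Mast cell and basophil markers (4 of 6 tested fell, 1 rose) had a median sum of 93.9 TPM in monocytes and 1428 TPM in progenitors, and erythroid and megakaryocyte markers (3 of 4 tested fell) 36.7 TPM in monocytes and 191 TPM in progenitors. The fall of these last lists went with the lower Adgrg1 and Adgrl4, and their part in those levels was not tested. Clones 8, 21, 24 and 26 each had a library that stood apart in earlier work on these data, and results that turn on them are given with and without them. The labels name no batch; clones 15 to 26 (n = 11) and clones 1 to 13 (n = 13) are sets seen only in the data.

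Adhesion GPCR transcripts as a whole summed to 221 ± 110 TPM in monocytes and 566 ± 282 TPM in progenitors (SD, n = 24 each), and a different receptor led in each state. The 6 genes made up 97.0% ± 2.05 of the family total in monocytes and 93.3% ± 3.33 in progenitors. Adgre5 alone took 51.4% ± 14.3 of the family total in monocytes, against 4.12% ± 6.14 in progenitors. Adgrg1 took 6.81% ± 5.70 in monocytes, against 67.2% ± 10.4 in progenitors. Adgre5 was the most abundant family member in 20 of 24 monocyte libraries, with Adgre1 leading in clones 8 and 11 and Adgrg3 in clones 22 and 26. Adgrg1 was the most abundant in 23 of 24 progenitor libraries, the exception being clone 21, where Adgre5 led.

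**Figure D1:**
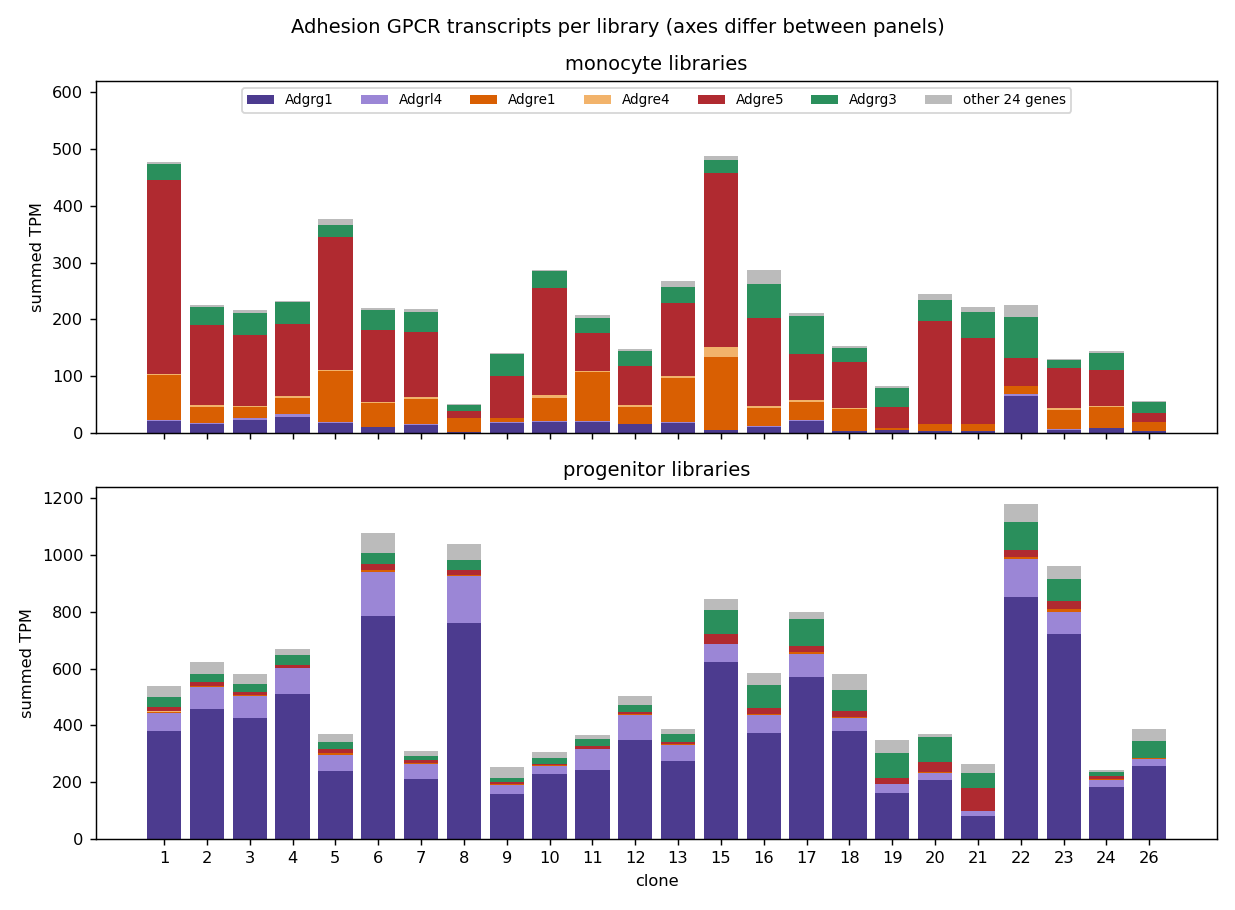
Summed TPM of the adhesion GPCR family in each monocyte library (upper panel) and each progenitor library (lower panel), by clone number, with 1 colour per gene and grey for the other 24 family genes. Adgre5 (red) is the largest block in 20 of 24 monocyte libraries and Adgrg1 (dark purple) in 23 of 24 progenitor libraries.

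By median level, the order in monocytes was Adgre5 (120 TPM), Adgre1 (32.0), Adgrg3 (31.1), Adgrg1 (14.1), Adgre4 (2.37) and Adgrl4 (1.44). Adgre1 and Adgrg3 could not be ordered, since Adgre1 was the higher of the pair in 13 of 24 libraries, and Adgre4 exceeded Adgrl4 in 17 of 24. Adgrg3 exceeded Adgrg1 in 24 of 24 monocyte libraries. In progenitors the median order was Adgrg1 (361 TPM), Adgrl4 (61.6), Adgrg3 (35.8), Adgre5 (14.8), Adgre1 (3.86) and Adgre4 (0.00975). Adgrl4 exceeded Adgrg3 in 16 of 24 progenitor libraries, and each of the other neighbours in that order differed the same way in at least 23 of 24. The ranges of every pair of neighbours overlapped in both states.

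**Figure D2:**
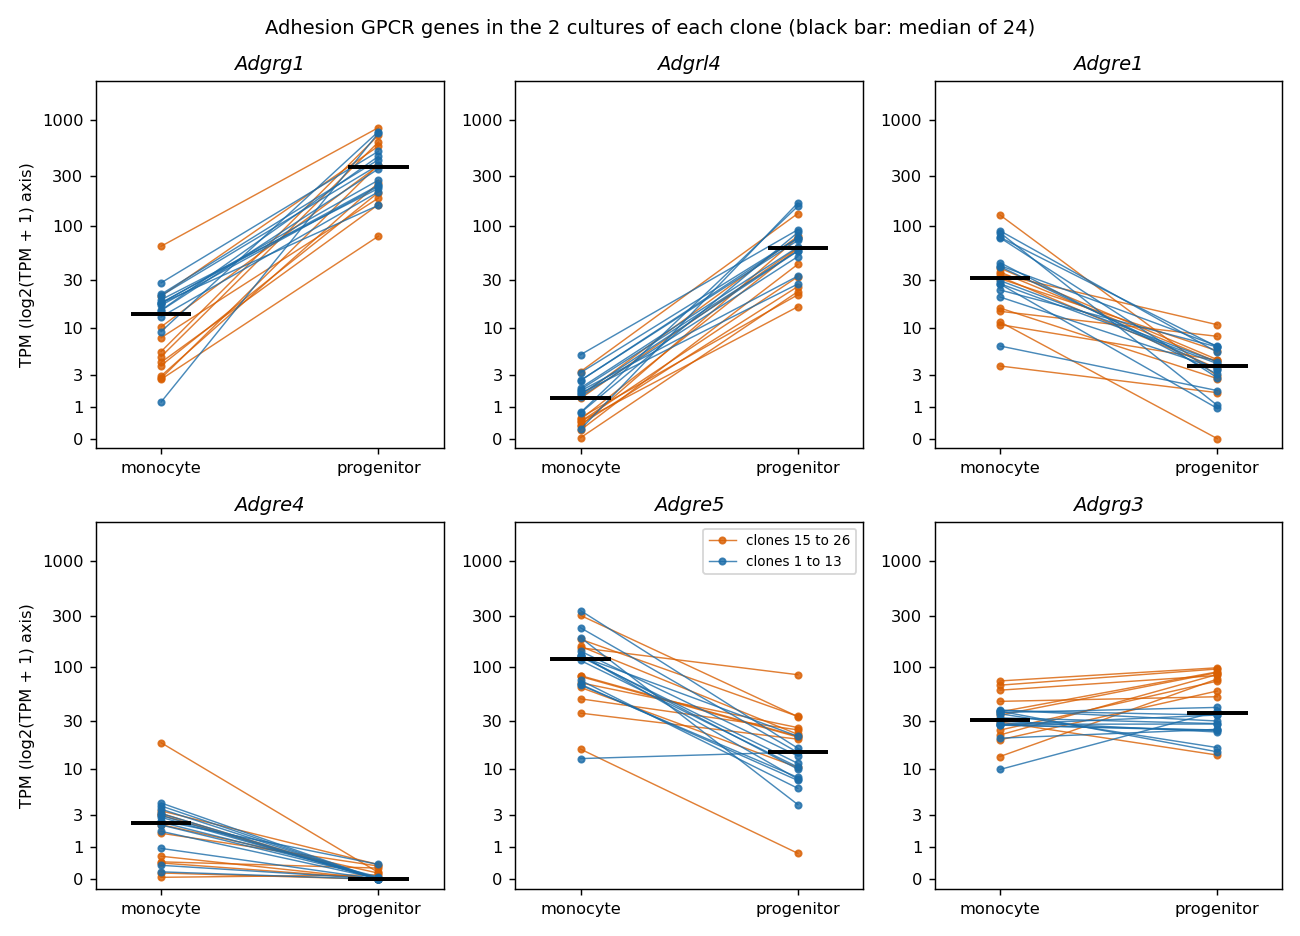
TPM of each gene in the monocyte library (left) and the progenitor library (right) of each of 24 clones, on a log2(TPM + 1) axis; a line joins the libraries of a clone, orange for clones 15 to 26 and blue for clones 1 to 13, and black bars are medians. Adgrg1 and Adgrl4 are lower in monocytes with no overlap, Adgre1, Adgre4 and Adgre5 are mostly higher, and the lines of Adgrg3 run in both directions.

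The receptors of immature cells were both far lower in monocytes. Adgrg1, a receptor that in other tissues binds transglutaminase 2 and collagen III, had 1.21 TPM at the lowest, 14.1 at the median and 64.1 at the highest in monocytes, against 80.0, 361 and 854 TPM in progenitors. The groups did not overlap: the highest monocyte library, clone 22, lay under the lowest progenitor library, clone 21, and Adgrg1 was lower in monocytes in 24 of 24 clones. The log2 fold change was -4.88 (SE 0.25) on the log2(TPM + 1) scale, and the ratio of means was 27.2 in favour of progenitors. Across all 11072 genes with a mean of at least 1 TPM, limma called 68.8% in one direction or the other and 36.5% lower in monocytes, 10.9% moved the same way in all 24 clones, and 1.70% had ranges that did not overlap. In bulk libraries, fewer cells of a type and less RNA per cell cannot be told apart.

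Among the monocyte libraries, Adgrg1 was highest in clone 22, which also had the highest summed level of the 5 progenitor markers in that state, 332 TPM against a median of 43.5 TPM, and the lowest neutrophil sum, 427 TPM. It was lowest in clone 8, where 7 erythroid and megakaryocyte markers summed to 601 TPM, the highest of any monocyte library. The part of these markers in the level of Adgrg1 was not tested.

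Adgrl4, better known as an angiogenic receptor of endothelial cells, had 0.0198 TPM at the lowest, 1.44 at the median and 5.18 at the highest in monocytes, against 16.5, 61.6 and 166 TPM in progenitors. It too was lower in monocytes in 24 of 24 clones with no overlap between the groups. The log2 fold change was -4.70 (SE 0.18), and since the monocyte levels lie near the added 1 TPM this understates the difference: the ratio of means was 45.8 in favour of progenitors. Of the endothelial markers, Cdh5, Kdr, Tek and Emcn had medians of 0 in both states, and Pecam1, which blood cells also carry, fell to a mean of 10.3 TPM in monocytes, against 31.8 TPM in progenitors.

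The EGF-module receptors Adgre1, Adgre4 and Adgre5 had the opposite pattern. Adgre1, the F4/80 antigen used to mark mouse macrophages, had 3.84 TPM at the lowest, 32.0 at the median and 127 at the highest in monocytes, against 0, 3.86 and 10.9 TPM in progenitors, where clone 21 was listed at 0. It was higher in monocytes in 24 of 24 clones although the ranges overlapped, with a log2 fold change of 2.78 (SE 0.24). Limma called 32.4% of all genes higher in monocytes.

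The monocyte libraries spread widely in Adgre1, 33.2-fold between the extremes. The highest, clone 15, also had the highest summed level of the 8 monocyte and macrophage markers, 3822 TPM. The lowest, clone 19, had the lowest such sum, 73.3 TPM, and the highest sum of 7 mast cell and basophil markers, 3701 TPM. Across monocytes Adgre1 had r = 0.75 with the number of genes reaching 1 TPM, 0.719 within clones 15 to 26 and 0.725 within clones 1 to 13. Its r with the mitochondrial share was -0.30. The monocyte library of clone 19 had 9448 such genes and a mitochondrial share of 19.2%. The part of these markers and library measures in the level of Adgre1 was not tested.

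Adgre4 was the scarcest of the EGF-module genes. In monocytes it had 0.0445 TPM at the lowest, 2.37 at the median and 18.4 at the highest, against 0, 0.00975 and 0.382 TPM in progenitors, 6 of which were listed at 0. It was higher in monocytes in 23 of 24 clones, clone 22 being the exception, and the ranges overlapped. Adgre4 passed the filter on mean TPM only through the monocytes, and its log2 fold change of 1.44 (SE 0.19) is compressed by the added 1 TPM. The top monocyte library was again clone 15, far above the next at 4.25 TPM.

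Adgre5 (CD97), whose known ligands include CD55, Thy1 and the integrin alpha5 beta1, had 12.8 TPM at the lowest, 120 at the median and 341 at the highest in monocytes, against 0.759, 14.8 and 83.9 TPM in progenitors. It was higher in monocytes in 23 of 24 clones, with a log2 fold change of 2.68 (SE 0.24). The ranges overlapped, but without clones 8, 21, 24 and 26 they did not: 35.9 to 341 TPM in 20 monocyte libraries, against 4.07 to 33.4 TPM in 20 progenitor libraries. The overlap came from the low monocyte libraries of clones 8 and 26 and the high progenitor library of clone 21. Clone 8 was the one clone with a lower value in monocytes, 12.8 TPM against 14.8 TPM in progenitors. Across monocytes Adgre5 had r = -0.70 with the mitochondrial share of TPM, -0.86 within clones 15 to 26 and -0.75 within clones 1 to 13. In progenitors that r was 0.27 over 24 libraries. The mitochondrial share was 11.1% in the monocyte library of clone 8 and 25.1% in that of clone 26. The part of this measure in the level of Adgre5 was not tested.

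Adgrg3 differed from the others in that it had no common direction. It had 9.86 TPM at the lowest, 31.1 at the median and 73.2 at the highest in monocytes, against 13.9, 35.8 and 97.8 TPM in progenitors. It was higher in monocytes in 9 clones and lower in 15, with a log2 fold change of -0.39 (SE 0.19) and overlapping groups. The sets of clones differed in how they were split. In clones 15 to 26 it was lower in monocytes in 10 of 11 clones, at 38.8 ± 20.2 TPM in monocytes and 73.7 ± 24.5 TPM in progenitors (SD, n = 11 each). In clones 1 to 13 it was higher in monocytes in 8 of 13 clones, at 29.9 ± 8.10 TPM in monocytes and 27.9 ± 7.60 TPM in progenitors (SD, n = 13 each).

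**Figure D3:**
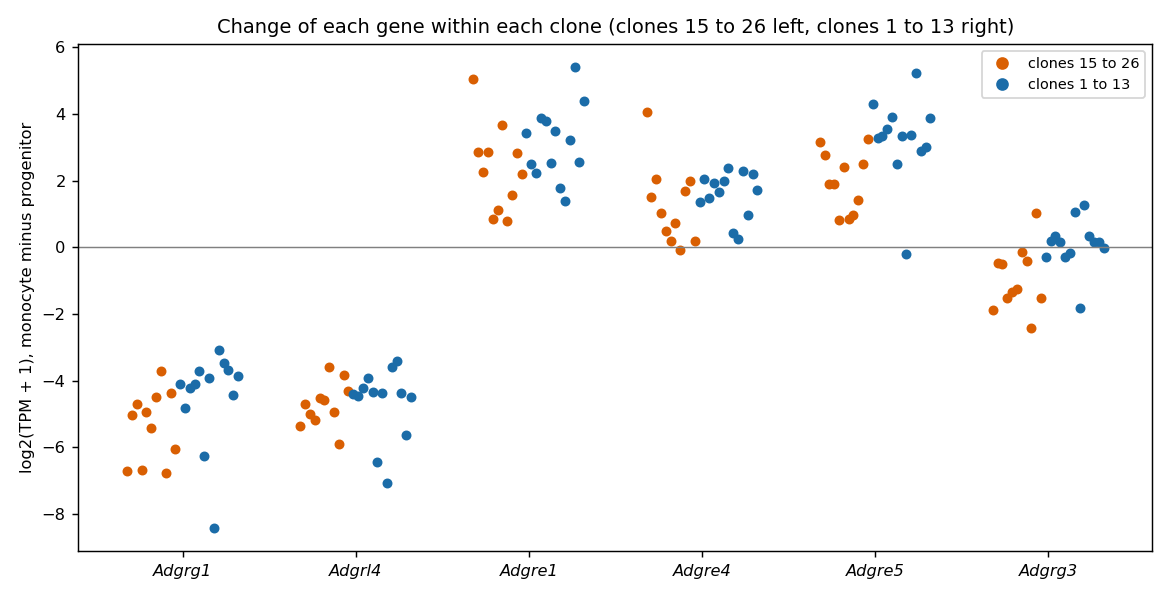
Difference in log2(TPM + 1), monocyte minus progenitor, of each gene in each of 24 clones; orange points are clones 15 to 26 and blue points clones 1 to 13, in number order within each set. All points of Adgrg1 and Adgrl4 lie under 0 and all points of Adgre1 over it, while for Adgrg3 10 of 11 orange points lie under 0 and 8 of 13 blue points over it.

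The change between states was then compared between the sets of clones, a contrast that did not choose the genes. The sets were themselves seen in these data. The limma p-values between them, here and below, therefore belong to a split already known to separate the libraries. For Adgrg3 the change was more negative by 1.04 log2 units in clones 15 to 26 than in clones 1 to 13 (difference -1.04, SE 0.34, limma adjusted p = 0.0465), in a comparison that called 11.5% of 11072 genes. This call was at its limit. It was lost in 21 of 24 repeats that left out 1 clone, being kept without clone 8, 21 or 24 (differences from -1.24 to -0.89, limma adjusted p from 0.00524 to 0.0991), and the difference was -1.47 (limma adjusted p = 0.000247) without clones 8, 21, 24 and 26. It was also lost with a pseudocount of 0.1 (adjusted p = 0.0538), with no filter on low values (0.0764) and with a mean of at least 5 TPM (0.0525).

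Among the members' comparisons between the sets, that of Adgrg3 in progenitors alone was called in each of 24 repeats that left out 1 clone. Progenitors of clones 15 to 26 had 13.9 TPM at the lowest, 82.6 at the median and 97.8 at the highest, against 14.9, 28.1 and 40.8 TPM in progenitors of clones 1 to 13. All but 1 of clones 15 to 26, 10 of 11, lay above every progenitor of clones 1 to 13, and the exception was clone 24. The difference was 1.29 log2 units (SE 0.24, limma adjusted p = 0.000195), where 39.4% of 11068 genes were called in either direction and 28.5% higher in clones 15 to 26. In monocytes the sets differed by 0.25 (SE 0.25, limma adjusted p = 0.596), where 7.09% of 11066 genes were called.

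Some library measures differed between the sets or moved with Adgrg3 in progenitors. The median number of genes reaching 1 TPM was 10840 in progenitors of clones 15 to 26 and 10000 in those of clones 1 to 13, and mitochondrial transcripts took a median of 11.9% in clones 15 to 26 and 5.39% in clones 1 to 13. Across the 24 progenitor libraries, Adgrg3 had r = 0.86 with the number of genes reaching 1 TPM, and 0.94 within clones 15 to 26 and 0.92 within clones 1 to 13. The mitochondrial share had r = 0.52 with Adgrg3 over the 24 libraries but -0.54 within clones 15 to 26 and -0.17 within clones 1 to 13. Clone 24, the low exception, had the fewest such genes of all, 8240, and without it r was 0.86 over 23 libraries and 0.82 within clones 15 to 26. The part of these measures in the difference between the sets was not tested.

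**Figure D4:**
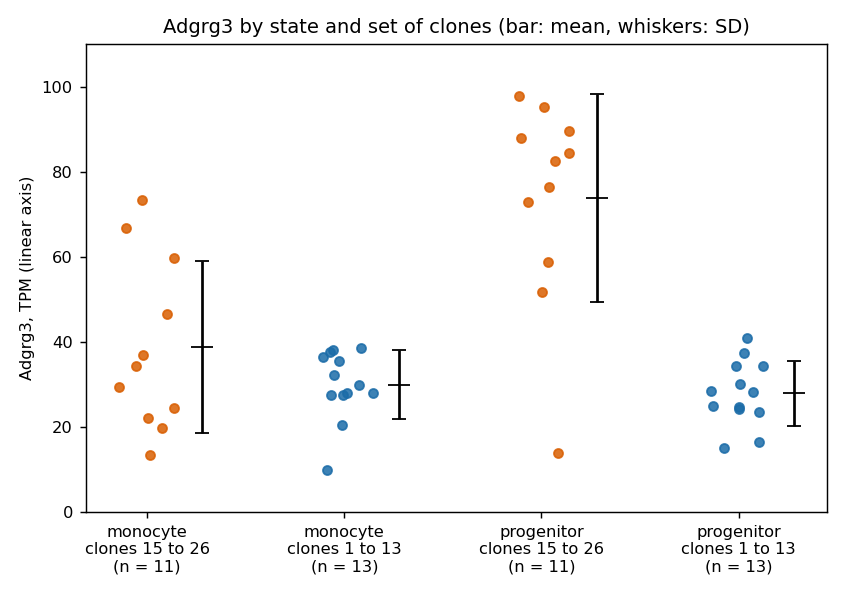
Adgrg3 in TPM on a linear axis, for monocytes of clones 15 to 26, monocytes of clones 1 to 13, progenitors of clones 15 to 26 and progenitors of clones 1 to 13; points are libraries, and the bar with whiskers is the mean with the SD. Progenitors of clones 15 to 26 stand at 73.7 ± 24.5 TPM with clone 24 far below the rest, and the other groups centre on 27.9 to 38.8 TPM.

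For Adgre5 the change between states had a median of 1.90 log2 units in clones 15 to 26 (0.81 to 3.26) and 3.34 in clones 1 to 13 (-0.20 to 5.23). The difference of -1.27 (SE 0.43) missed the threshold (limma adjusted p = 0.0531). It was called in 5 of 24 repeats that left out 1 clone (without clone 8, 15, 20, 24 or 26) and without clones 8, 21, 24 and 26, where it was -1.63 (limma adjusted p = 0.000646), and with a pseudocount of 5 (-1.15, limma adjusted p = 0.0420). In progenitors, Adgre5 averaged 27.0 ± 21.1 TPM in clones 15 to 26 and 11.3 ± 4.75 TPM in clones 1 to 13. That difference of 0.87 log2 units (SE 0.40) was not called with all clones (limma adjusted p = 0.0797) but was 1.23 without clone 26, whose progenitor library held 0.759 TPM (limma adjusted p = 0.000899), 0.96 without clone 24 (0.0489) and 1.22 without clones 8, 21, 24 and 26 (4.32e-05), and with a pseudocount of 5 it was called at 0.77 (0.0275).

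The other members' changes did not differ between the sets at the threshold with all clones. Adgrg1 had a difference of -0.89 (SE 0.49, limma adjusted p = 0.231), which was called without clone 8 (-1.21, adjusted p = 0.0237) and without clones 8, 21, 24 and 26 (-1.36, adjusted p = 0.00948). Adgrl4 differed by -0.05 (SE 0.36), Adgre1 by -0.76 (SE 0.46) and Adgre4 by -0.33 (SE 0.37), with limma adjusted p of 0.947, 0.281 and 0.586. Within monocytes, Adgrg1 (-0.98, SE 0.43) and Adgrl4 (-0.72, SE 0.24) were lower in clones 15 to 26 without passing (limma adjusted p = 0.169 and 0.0629), and both passed when either clone 8 or clone 22 was left out (adjusted p from 0.0150 to 0.0338). Within progenitors, Adgrl4 averaged 52.3 ± 34.7 TPM in clones 15 to 26 and 78.2 ± 40.9 TPM in clones 1 to 13, a log2 difference of -0.67 (SE 0.32, limma adjusted p = 0.0935) that passed only without clone 22 (adjusted p = 0.0342). Adgre4, near 0 in progenitors of both sets, differed there by 0.12 (SE 0.07, limma adjusted p = 0.212). Without clones 8, 21, 24 and 26 its difference was 0.17 and passed (limma adjusted p = 0.040).

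Whether a clone with a high level in one state was also high in the other was asked for each gene by the correlation of its monocyte and progenitor libraries over 24 clones. Adgre4 was not tested because its progenitor mean was under 1 TPM. For the other 5 genes Pearson r was 0.20 (Adgrg1), 0.37 (Adgrl4), 0.24 (Adgre1), 0.37 (Adgre5) and 0.19 (Adgrg3), and Spearman rho was 0.20, 0.36, 0.19, 0.26 and 0.21 in the same order. None passed in two-sided permutation tests adjusted over 9570 genes, of which 2.25% did (adjusted p from 0.431 to 0.762 for r and 0.460 to 0.780 for rho; unadjusted p from 0.0804 to 0.365 for r and from 0.0858 to 0.386 for rho). Without the 2 clones farthest from the median progenitor level, r was -0.13, 0.29, 0.12, 0.062 and -0.057.

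The sets of clones did not give the same picture. Within clones 15 to 26, r was 0.60 for Adgrg1, 0.70 for Adgrl4, 0.33 for Adgre1, 0.76 for Adgre5 and 0.22 for Adgrg3, and within clones 1 to 13 it was -0.50, -0.33, 0.17, 0.03 and -0.29. None passed within a set after adjustment over all genes, where 2 genes passed in clones 15 to 26 and 0 in clones 1 to 13 by the permutation test (541 and 499 at an unadjusted p under 0.05). Whether r differed between the sets was not tested. Clone 8 had the lowest monocyte level of clones 1 to 13 in Adgrg1 (1.21 TPM), Adgrl4 (0.225) and Adgrg3 (9.86). Its progenitor library held 759, 166 and 37.3 TPM of them. The r within clones 1 to 13 were not computed without it. With each set centred, the libraries of a clone had deviations correlated over 0.1 in 2 of these 13 clones. In clones 15 to 26 this held for 10 of 11.

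Adgrg1 and Adgrl4, on chromosomes 8 and 3, kept step with each other from clone to clone inside each state. Over 24 monocyte libraries r was 0.89 (rho 0.92) and over 24 progenitor libraries 0.86 (rho 0.85), and without the 2 clones farthest from the median of Adgrg1 it was 0.89 in monocytes and 0.81 in progenitors. In monocytes r was 0.94 within clones 15 to 26 and 0.80 within clones 1 to 13, and in progenitors 0.93 within clones 15 to 26 and 0.90 within clones 1 to 13. The ratio of Adgrg1 to Adgrl4 had a median of 9.68 in monocytes and 5.74 in progenitors, and its extreme of 196 was the monocyte library of clone 20, where Adgrl4 was at 0.0198 TPM. Points in one state share the scaling of TPM and the libraries' quality: in monocytes Adgrg1 had r = 0.70 and Adgrl4 r = 0.60 with the number of genes reaching 1 TPM. In progenitors these were 0.61 and 0.42, with 0.63 and 0.66 within clones 15 to 26 and 0.886 and 0.775 within clones 1 to 13. With the share of TPM in genes named Gm, they had r = -0.76 and -0.57 in progenitors and 0.28 and 0.22 in monocytes. The part of these measures in the shared pattern was not tested.

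**Figure D5:**
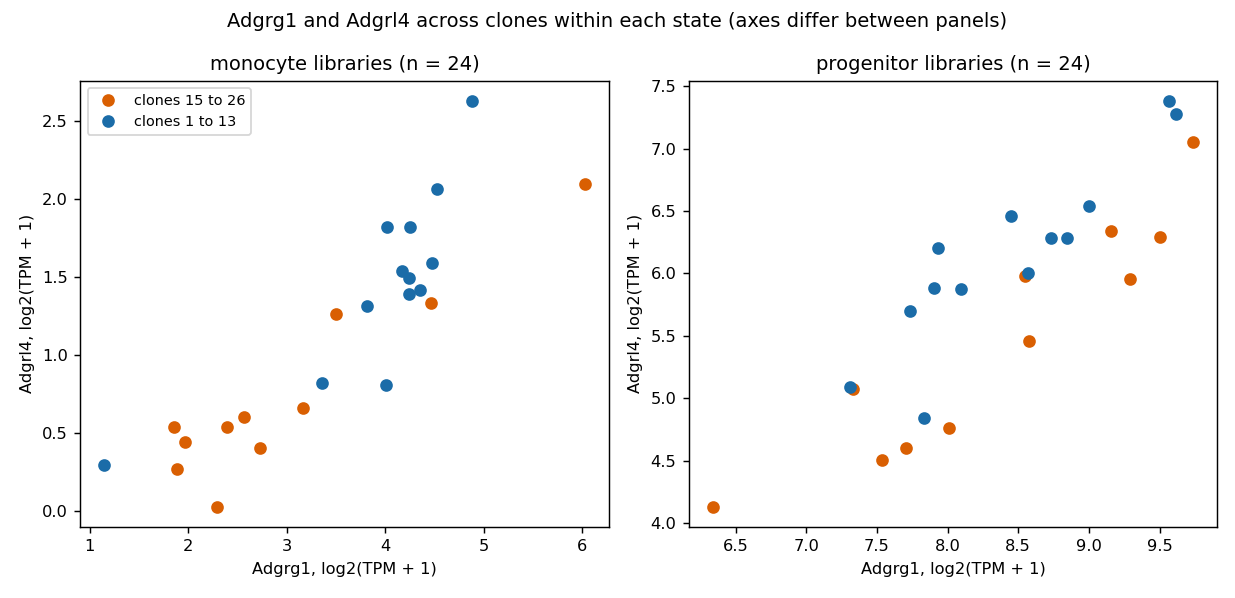
Adgrl4 against Adgrg1 in log2(TPM + 1) over 24 monocyte libraries (left) and 24 progenitor libraries (right), orange for clones 15 to 26 and blue for clones 1 to 13. The points rise together in both states, with r = 0.89 in monocytes and 0.86 in progenitors.

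Of the other 14 pairs of members, Adgre1 and Adgre4 had the next highest r in monocytes, 0.70 (rho 0.60), with 0.87 within clones 15 to 26 and 0.44 within clones 1 to 13. Their r in progenitors was 0.45, where Adgre4 was near 0. Adgrg1 and its neighbour Adgrg3 had r = 0.54 in monocytes and 0.35 in progenitors over all clones (0.25 and 0.38 without the 2 clones farthest from the median of Adgrg1), and higher values within each set. In monocytes their r was 0.66 within clones 15 to 26 and 0.80 within clones 1 to 13. In progenitors it was 0.45 within clones 15 to 26 and 0.89 within clones 1 to 13. All these values are descriptions over 24 libraries of one state.

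Over all 48 libraries, after the mean of each state and set of clones was subtracted, the pattern of each member was compared with 6821 genes. Most like Adgrg1 were the protein phosphatase gene Ppm1f (r = 0.87), Adgrl4 (0.86) and the histone demethylase gene Kdm2b (0.86). Besides Adgrg1, those most like Adgrl4 were Gnptab (0.82), which makes the mannose 6-phosphate tag of lysosomal enzymes, and the poly(A) ribonuclease gene Parn (0.80). Adgre1 was most like the lysosomal lipase gene Lipa (0.85), the metalloprotease gene Adam9 (0.85) and Aplp2 (0.85). Adgre4 was most like the cathepsin C gene Ctsc (0.82), the proteasome activator gene Psme2 (0.78) and the lysozyme gene Lyz1 (0.77). Within monocytes these r were 0.87, 0.88 and 0.80. Within progenitors, where Adgre4 was near 0, they were 0.33, 0.15 and 0.79, so the likeness to Ctsc and Psme2 lay mainly in monocytes. Adgre5 was most like Dscr3 (0.85), the leukocyte integrin gene Itgb2 (0.83) and Chmp3 (0.83). Adgrg3 had the highest likeness of the members, with the topoisomerase gene Top3b (0.94), Gnpat (0.90) and Sh2b1 (0.90). Some other likenesses also differed by state: Adgre1 with Aplp2 had 0.949 in monocytes and 0.618 in progenitors, Adgrl4 with Gnptab 0.673 and 0.905. Subtracting the means leaves differences between libraries of a set. Within the sets, Adgrg3 in progenitors had r = 0.94 and 0.92 with the number of genes reaching 1 TPM. The part of library measures in these likenesses was not tested.

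The rest of the family was mostly at or near 0. Of the 24 other adhesion GPCR genes, 13 were under 1 TPM in every library and 5 reached a mean of 1 TPM, of which 4 fell and 1 rose in monocytes, where 36.5% of all genes tested fell and 32.4% rose; the median log2 change of the 5 was -1.13, against -0.06 for all 11072 genes tested. Adgra3 (GPR125) fell to 1.75 ± 3.63 TPM in monocytes, against 22.8 ± 13.9 TPM in progenitors, a log2 change of -3.42 (SE 0.28, limma adjusted p = 1.74e-11), lower in 24 of 24 clones. The latrophilins Adgrl1 (-1.15) and Adgrl2 (-0.90), which bind teneurins on other cells, and the planar polarity cadherin Celsr1 (-1.13) fell too, with means of 0.347 to 1.03 TPM in monocytes and 2.26 to 3.04 TPM in progenitors and with limma adjusted p from 4.56e-08 to 0.000136. Celsr3 rose by 0.52 (limma adjusted p = 0.00653), higher in 18 of 24 clones, with 1.69 ± 1.83 TPM in monocytes and 1.01 ± 2.21 TPM in progenitors.

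Of 20 known ligands and membrane partners of the family, 9 were tested, 4 rose and 1 fell in monocytes, fewer calls in all than the 68.8% over all genes tested (32.4% rose and 36.5% fell), and the median log2 change was 0.24. Tgm2, the transglutaminase that binds Adgrg1, rose to 45.6 ± 28.6 TPM in monocytes, against 0.779 ± 1.04 TPM in progenitors (log2 change 4.61, SE 0.19, limma adjusted p = 1.49e-17), higher in 24 of 24 clones. The tetraspanin Cd9, which in other cells associates with Adgrg1, rose to 210 ± 180 TPM in monocytes, against 10.6 ± 7.73 TPM in progenitors (4.03, SE 0.31, limma adjusted p = 6.23e-12). Tgm2 and Cd9 were thus higher in the state in which Adgrg1 was lower, but this did not hold for all listed partners. The tetraspanin Cd81 was not called (log2 change 0.24, SE 0.20, limma adjusted p = 0.290). Col3a1, the collagen III gene, was at 0 TPM in every library. Of the ligands of Adgre5, Thy1 fell to a mean of 0.622 TPM in monocytes (0.0871 to 2.74), against 8.80 TPM in progenitors (0.523 to 44.7; log2 change -2.07, SE 0.26, limma adjusted p = 4.87e-08). Cd55 was too low to be tested, at 0.157 TPM in monocytes and 0.127 TPM in progenitors. Of the integrin subunits that bind Adgre5, Itga5 rose by 0.56 (SE 0.19, limma adjusted p = 0.0112), a call lost after mitochondrial and Gm rows were left out and the rest rescaled (adjusted p = 0.0504), and Itgb1 was not called (0.079, adjusted p = 0.649). Itgav rose to 10.8 ± 6.30 TPM in monocytes, against 4.09 ± 2.24 TPM in progenitors (1.15, SE 0.18, limma adjusted p = 3.29e-06), and Itgb3 was not called (0.091, adjusted p = 0.586); after that rescaling Itgb1 was at -0.11 and Itgb3 at -0.062, still not called. Prtn3, which encodes the protease that binds ADGRG3 on human neutrophils, had 630 ± 578 TPM in monocytes and 472 ± 296 TPM in progenitors and was not called (log2 change -0.30, limma adjusted p = 0.578), its mean being higher and its mean log2 level lower in monocytes.

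Most tested genes that carry the signal of such receptors rose in monocytes. Of 17 listed, 15 were tested, 11 rose and 0 fell by limma (11 and 0 also at an unadjusted p under 0.05), where 32.4% of all genes tested rose and 36.5% fell; the median log2 change of the 15 was 0.76. The beta-arrestins, which desensitise and internalise GPCRs, rose by 2.13 (Arrb1, SE 0.21) and 2.04 (Arrb2, SE 0.16), with limma adjusted p of 9.42e-10 and 7.89e-12. The G protein alpha subunits Gnaq (1.43, SE 0.18) and Gnai2 (1.36, SE 0.21) rose with limma adjusted p of 7.03e-08 and 1.90e-06, and Gnai2 reached 2487 ± 1111 TPM in monocytes and 896 ± 287 TPM in progenitors. Gna13, whose product links Adgrg1 to RhoA in other cells, rose by 0.76 (limma adjusted p = 3.80e-06), while Gna12 had a log2 change of 0.045 (adjusted p = 0.769), or -0.14 after mitochondrial and Gm rows were left out and the rest rescaled (0.315). Gna11, the gene with the most negative value, had a log2 change of -0.40 (limma adjusted p = 0.0741) and was called lower with a pseudocount of 5 (adjusted p = 0.0418) and after that rescaling (0.0156).

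Of 9 transcription factors known from blood stem and progenitor cells, several of which bind the gene of GPR56 in human cells, 8 were tested, 4 fell and 4 rose in monocytes, where 36.5% of all genes tested fell and 32.4% rose; the median log2 change was -0.17. Lyl1 was not called after mitochondrial and Gm rows were left out and the rest rescaled (0.17, limma adjusted p = 0.104), which left 3 that rose. Gata2 fell to 2.43 ± 3.98 TPM in monocytes, against 29.6 ± 14.2 TPM in progenitors (-3.55, SE 0.26, limma adjusted p = 3.15e-12), lower in 24 of 24 clones as Adgrg1 was. Tal1 fell by 2.04 on the log2 scale (SE 0.14, limma adjusted p = 3.58e-13) and Lmo2 by 1.44 (SE 0.14, limma adjusted p = 1.07e-09). Spi1, which encodes PU.1, rose to 293 ± 116 TPM in monocytes, against 62.2 ± 19.2 TPM in progenitors (2.19, SE 0.14, limma adjusted p = 9.60e-14), higher in 24 of 24 clones. Fli1 (1.08, SE 0.14, limma adjusted p = 1.70e-07) and Runx1 (0.91, SE 0.17, limma adjusted p = 2.38e-05) rose too. Erg fell by less than the other 3 (-0.70, SE 0.25, limma adjusted p = 0.014).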

How the data were processed

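RNA was measured in 48 libraries of 24 clones, grouped by the labels' source names and matched by the clone number of the titles; the sources used here do not explain plus and minus in the titles. The authors deposited 1 table of TPM, made with Salmon on mm10, per the submitters' processing notes; its annotation release is not stated. TPM are relative, so a class of transcripts that grows lowers all others, and an exact 0 may be a failed estimate. A total of 26 rows named by dates were left out, and 0 sample columns were unused.

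Changes between states and sets were tested with limma 3.58.1 (R 4.3.3, two-sided, trend) on log2(TPM + 1) for genes with a mean of at least 1 TPM, with clone as a block between states, Benjamini-Hochberg adjusted at 0.05. Fold changes on that scale understate those of low genes. Shared clone differences used 100000 permutations for genes that in both states had a mean of 1 TPM or more and varied by at least 0.25 (SD, log2). The series design text pairs the cultures by clone; 18 of 24 clones had a correlation over 0.1 between their libraries' deviations, and 12 of 24 with each set centred (10 of the 11 clones numbered 15 to 26, but 2 of the 13 numbered 1 to 13, for which the pairing has only that text behind it). Each clone and state has 1 library. On simulated data limma recovered 80.0% of changes of 1 log2 unit between states (4 false calls among 11072 genes) and 32.0% of such differences between sets (5 false calls), and the permutation test 74.0% of correlations of 0.7 (12 false calls among 9570 genes).

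The members, lists and sets of clones were chosen with earlier results of these data known. Besides the members, the rule named the other family genes at a mean of 1 TPM or more, the called genes with the largest changes (up to 4 a list), and the 3 genes most like each member (mean of at least 5 TPM, no Gm models). Cd55, Cd81, Col3a1, Prtn3, Itga5, Itgb1, Itgb3, Lyl1, Fli1, Runx1, Erg, Gna11, Gna12, Gna13 and Adgrg5 were named after their values were seen. Other steps used numpy 2.4.6, scipy 1.17.1, numba 0.67.0, pandas 2.3.3 and matplotlib 3.10.9 in Python 3.11.15.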

Additional observations from a re-analysis of the deposited data

Results flagged for a closer look

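The change of Adgrg3 between states differed between the sets of clones by -1.04 log2 units, clones 15 to 26 minus clones 1 to 13 (SE 0.34, limma adjusted p = 0.0465), and was lost in 21 of 24 repeats that left out 1 clone. It was marked because the difference between 2 groups of clones was itself tested and passed. Those groups had been seen in these same data before the test, so it is not an independent one. The sets carry no label in the sources used here, so what else differed between them cannot be told apart from the clones themselves.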

How the results depend on the processing

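Between states 7623 genes were called with clone as a block and 7436 with no replicate block, so the pairing by clone changed little, and 5005 were called in clones 15 to 26 alone. Leaving out mitochondrial and Gm rows and rescaling moved the median change of all genes to -0.21 (it was -0.06), and the share of higher calls to 39.9% (47.0% before); it was 39.4% in clones 15 to 26 alone and 54.3% in clones 1 to 13 alone. Under that scaling no called list gene turned direction between states, while Itga5, Lyl1 and Rock2 lost their calls. Every member kept its direction between states in every alternative except Adgrg3, which was 0.085 in clones 1 to 13 alone; Adgrl4 was -5.68 with a pseudocount of 0.1 and -3.28 with 5, and Adgre4 was 3.45 with 0.1 and has no value at a mean of at least 5 TPM. The difference between sets in the change called 1268 genes, 680 at a mean of at least 5 TPM, 5285 without clones 8, 21, 24 and 26, and 725 to 3036 with 1 clone left out. In progenitors the sets differed in 4360 genes, 2758 at a mean of at least 5 TPM, 7616 without those 4 clones and 3854 to 6145 with 1 left out; in monocytes in 785, with 592 to 1262 when 1 was left out. Shared clone differences called 215 genes, 114 by Spearman correlation, 115 at a mean of at least 5 TPM, 15 with sets centred, 0 in clones 1 to 13 and 2 in clones 15 to 26 alone, 485 rescaled and 683 without the 4 clones. The set difference in the change of Adgrl4 turned to 0.36 with a pseudocount of 5, and that of Adgrg1 in progenitors to 0.40 without the 4 clones; r across states turned to -0.50 (Adgrg1), -0.33 (Adgrl4) and -0.29 (Adgrg3) in clones 1 to 13 alone, and to -0.13 (Adgrg1) and -0.057 (Adgrg3) without the 2 farthest clones. The cause of these changes was not tested. With no filter, 2 other family genes rose and 9 fell; at a mean of at least 5 TPM 0 rose and 1 fell, and 0 partners fell. With a pseudocount of 5, and after rescaling, 1 signalling gene (Gna11) fell. TPM keep no depth, so counting error is unknown. The 4 clones were named in earlier work on these data; leaving out single clones and the list counts were alternatives added after seeing the data.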
